A study of Rattus norvegicus with 24 samples.

Results

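The genes described here encode the collagens, the laminins and other structural proteins of the extracellular matrix, and were measured in rat spinal cord, in its dorsal horn, where sensory fibres end. They were taken by symbol: every gene named Col followed by a number, every laminin chain (Lama, Lamb or Lamc followed by a number), and Fn1, Sparc, Sparcl1, Nid1, Nid2, Fbn1, Fbn2, Dcn, Lum, Bgn, Fmod, Postn, Tnc, Lox, Loxl1, Hspg2, Eln and Agrn where the array held them. This gave 55 genes on 72 probe sets, out of 10411 genes on 15866 probe sets, and the rule reads symbols only. Each gene was represented by its probe set with the highest mean, and 35 of the 55 lay above the filter level of 3.84 log2 on at least 6 arrays and were tested.

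Total RNA from the dorsal horn on the operated side was hybridised to 24 Affymetrix Rat Expression 230A arrays, 6 in each of 4 groups, from Sprague-Dawley rats operated under isoflurane. In spared nerve injury (SNI), of the branches of the sciatic nerve the sural was spared and the tibial and common peroneal were tied and cut, and tissue was studied 7 days later. In sham rats the sciatic nerve was only exposed, and the labels give no separate time for them. Adult sham and adult SNI rats were 8 to 12 weeks old, and neonate sham and neonate SNI rats carry the label postnatal day 10, without saying whether that was the age at surgery or at collection. The labels call the arrays of a group biological replicates and do not say whether animals were pooled. Values are log2 expression, so a difference of 1 is a doubling, and because probe sets bind with different strength levels are compared between groups for one gene and never between genes.

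Matrix proteins fall into a few structural classes. Fibrillar collagens form the cables of connective tissue, while type IV collagen and the laminins form the sheets called basement membranes, which nidogens and perlecan tie together. In the central nervous system this kind of matrix is mostly confined to the walls of blood vessels and to the meninges that cover the cord, and the space between neurons holds a softer matrix of hyaluronan and proteoglycans instead.

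The arrays were alike in their overall distribution, with medians of 5.57 to 5.67 log2 and no pair correlating below 0.984. Transcripts of neurons, oligodendrocytes and astrocytes were high in every group, with list means of 10.17 log2 or more on every array. The 14 tested endothelial markers had list means of 7.05 to 7.38 log2. The endothelial gene Pecam1 and the cartilage gene Comp were near the lowest value of the arrays, 2.09 log2, but single genes do not show that a cell type was absent. Among the matrix genes one array stood apart: in neonate sham 3 the 35 genes had a median deviation of -0.77 log2 from the mean of the other 5 neonate sham arrays, and 32 of them were lower there. The deviation there was -2.17 log2 for Col1a2, -2.03 for Lama2, -1.91 for Dcn, -1.86 for Lum and -1.80 for Col3a1, while Sparcl1 (0.09) and Bgn (-0.04) were close to the others. Its mean over 12 meningeal and fibroblast markers was also lower, by -0.89 log2, and that over 5 Schwann cell markers by -1.38 log2, against -0.05 log2 for 14 endothelial markers. Adult sham 4 deviated less, with a median of -0.52 log2 and 27 of 35 genes lower, and adult sham 2 was higher by a median of 0.44 log2. The part of these arrays' cell makeup in the results was not tested, and calls that change when 1 of them is left out are given below.

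The matrix genes were lower in adult than in neonate dorsal horn. In sham rats 18 of the 35 tested genes were lower in adults and 0 were higher (limma, Benjamini-Hochberg adjusted p below 0.05 over all 9638 probe sets tested), where 8.59% of all 7006 tested genes were lower and 7.86% higher. The median difference, adult minus neonate, was -0.49 log2 over the 35 genes and -0.03 log2 over all tested genes. A gene that passes the filter only through the neonate arrays had to be lower in adults, and 15 of the 30 matrix genes above the level on all 24 arrays were called lower as well. In 6 of the 35 genes (17.1%), all of them among the 18, every adult sham array lay below every neonate one, against 4.11% of all tested genes. In 0 of the 35 they lay above (4.54% of all tested genes). In whole tissue, fewer cells of a type and less RNA per cell cannot be told apart. Without neonate sham 3 the median was -0.72 log2 with 20 genes called, without adult sham 3 there were 12 called, and without both neonate sham 3 and adult sham 4 it was -0.56 log2 with 18 called.

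**Figure D1:**
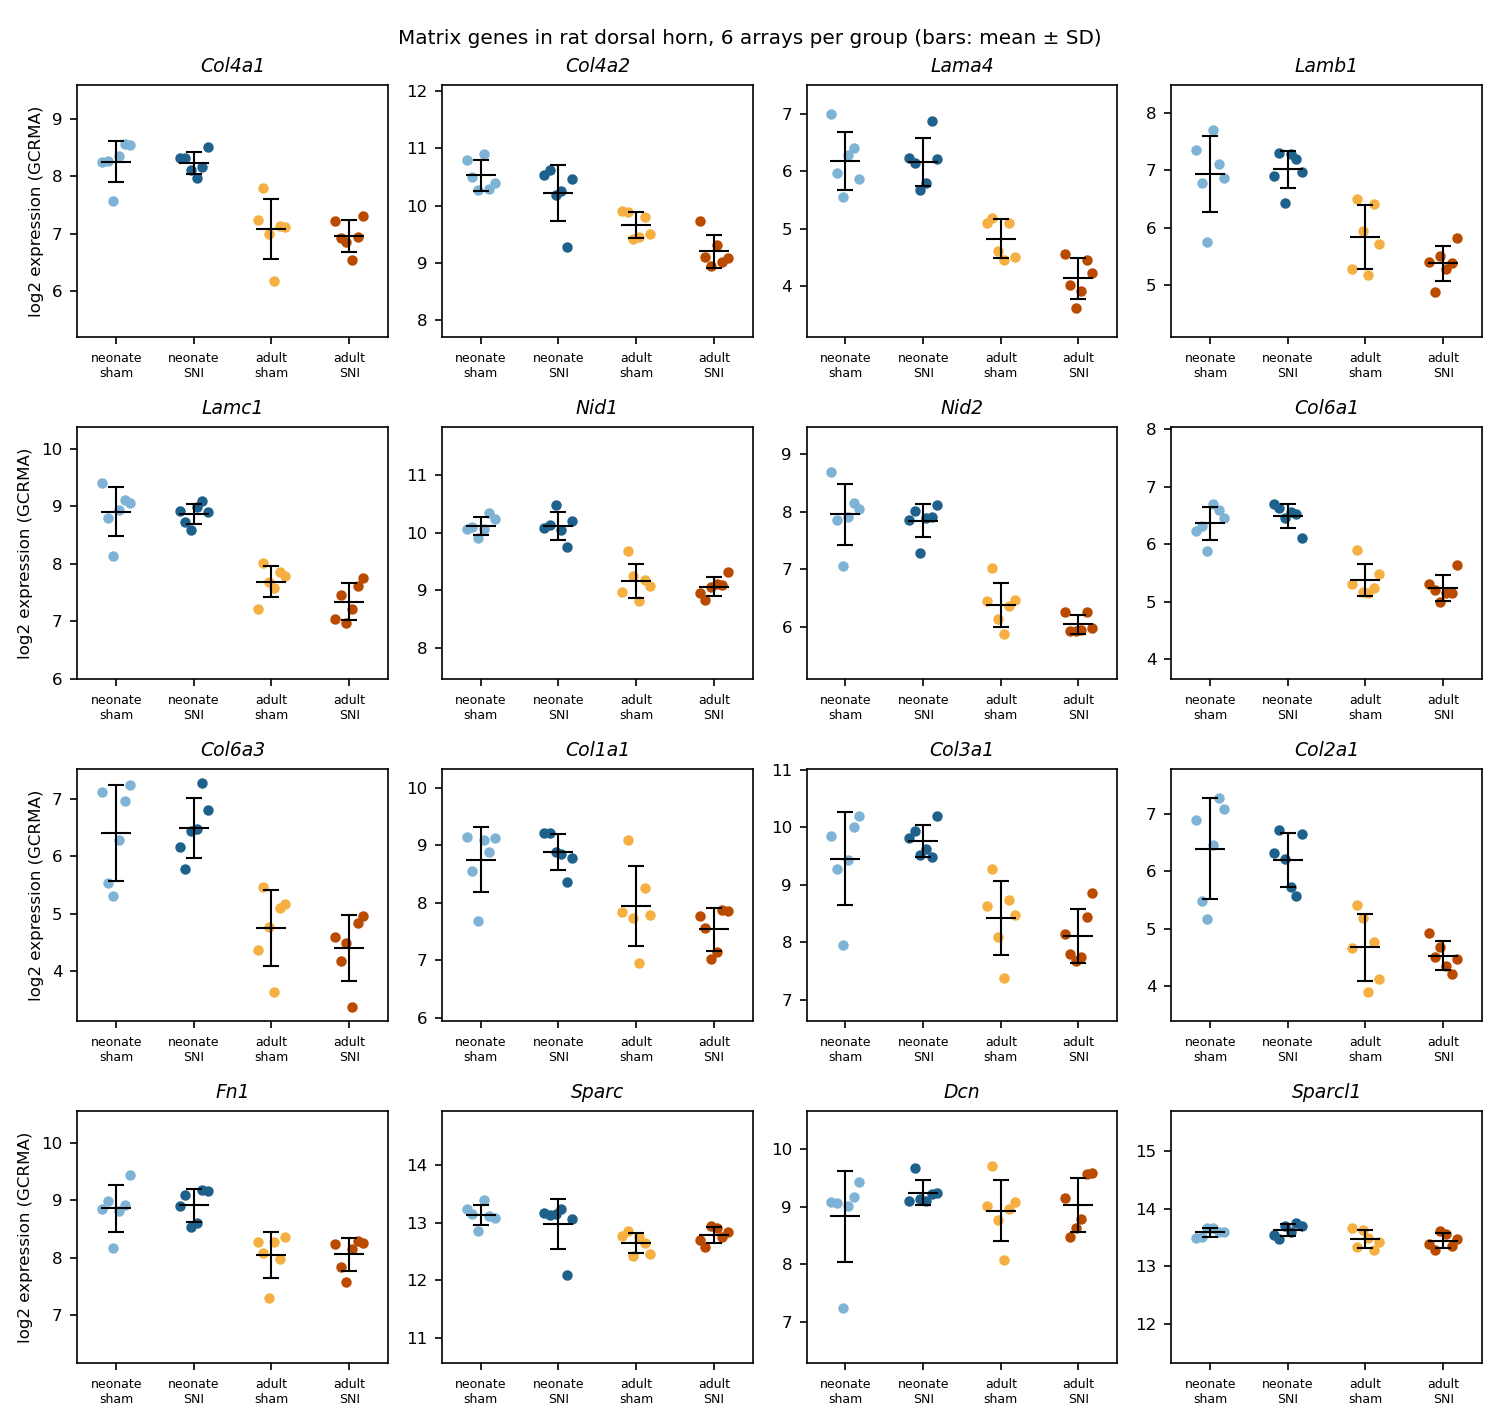
Log2 expression of selected matrix genes (vertical axes, own scale for each gene) on each array of the 4 groups; points are arrays and bars are the mean ± SD of 6. In Nid2, Lamc1 and Lama4 all adult sham points lie below all neonate sham points, while Sparcl1 is nearly level across the 4 groups.

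Basement membrane components were lower in adult sham rats in most cases. Both tested type IV collagen chains that form the common network, 4 of 5 tested laminin chains and 3 of 4 other basement membrane proteins passed the test. Nid2 (probe set 1388618_at), a nidogen that links laminin to type IV collagen, ran from 7.06 through a median of 7.98 to 8.69 log2 on the neonate sham arrays and from 5.88 through 6.40 to 7.02 log2 on the adult sham arrays. The groups did not overlap, and the difference was -1.57 ± 0.20 log2 (SE, 6 arrays each; limma adjusted p = 4.4e-06), 2.98-fold lower in adults. Its relative Nid1 (1371518_at) lay at 9.90, 10.08 and 10.34 log2 (lowest, median and highest) in neonates and at 8.81, 9.13 and 9.68 log2 in adults. Again no adult sham array reached a neonate one, and Nid1 was 1.94-fold lower (limma adjusted p = 6.7e-06).

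Among the laminins, which are trimers of an alpha, a beta and a gamma chain, the gamma chain Lamc1 (1371322_at) shared by most of them lay at 8.14, 8.99 and 9.41 log2 in neonate sham rats and at 7.22, 7.74 and 8.02 log2 in adult sham rats. The groups were separate and the difference was -1.22 ± 0.17 log2 (limma adjusted p = 1.7e-05). Lama4, the alpha chain of vessel walls, lay at 5.55, 6.13 and 7.00 log2 in neonates and 4.45, 4.86 and 5.20 log2 in adults. It too showed no overlap, with a difference of -1.35 ± 0.22 log2 (limma adjusted p = 1.0e-04). Lamb1, a beta chain, overlapped in part: its neonate sham arrays lay at 5.76, 6.99 and 7.71 log2 and its adult sham arrays at 5.18, 5.82 and 6.50 log2, a difference of -1.09 ± 0.26 log2 (limma adjusted p = 0.0050). The lowest neonate value was that of neonate sham 3. Lama2, an alpha chain of muscle and nerve, lay at 5.39, 7.54 and 7.73 log2 in neonates and at 5.39, 6.10 and 7.13 log2 in adults, so that the ranges overlapped widely and the difference of -0.98 ± 0.33 log2 passed only narrowly (limma adjusted p = 0.0442). It did not pass when any 1 of 14 of the 24 arrays was left out (limma adjusted p up to 0.109). The other beta chain, Lamb2, had medians of 6.89 log2 in neonates and 7.08 log2 in adults, with a difference of 0.08 log2 and an interval (95%, as all intervals here) of -0.28 to 0.44 log2.

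Type IV collagen is the sheet-forming collagen of basement membranes, and its chains Col4a1 and Col4a2 lie head to head in the genome. Col4a1 (1373245_at) lay at 7.56, 8.31 and 8.57 log2 in neonate sham rats and at 6.17, 7.13 and 7.79 log2 in adult sham rats. The ranges met only because of neonate sham 3, the lowest neonate array, and the gene was 2.26-fold lower in adults (limma adjusted p = 1.3e-04). Col4a2 (1388494_at) lay at 10.27, 10.45 and 10.90 log2 and at 9.41, 9.65 and 9.91 log2, without overlap and 1.82-fold lower (limma adjusted p = 0.0016). Col4a5, a chain of other type IV networks, differed by -0.15 log2 with an interval of -0.47 to 0.16 log2. Agrn, which encodes agrin, a heparan sulfate proteoglycan of the basement membrane, lay at 9.83, 10.03 and 10.26 log2 in neonates and at 9.53, 9.72 and 9.88 log2 in adults. Only the ends of those ranges met, and the difference of -0.36 ± 0.11 log2 was called (limma adjusted p = 0.0251), but not without adult sham 3 or 5 or neonate sham 5 or 6 (up to 0.0663). Perlecan, encoded by Hspg2, differed by -0.08 log2 with an interval of -0.33 to 0.18 log2, and 22 of its 24 arrays were above the filter level.

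Upstream sequence is shown for every type IV collagen, laminin and other basement membrane gene called lower in adult sham rats that had a promoter entry, which leaves out Nid2. The letters come from RefSeq (GRCr8), run 5′ to 3′ on the strand of the gene and end at the base before its start. They are the 76 bases between the starts of Col4a1 and Col4a2 (chr16:84885521-84885596, plus strand) and 150 bases each of Lamc1 (chr13:68051987-68052136, minus strand), Lamb1 (chr6:53562946-53563095, plus strand), Lama4 (chr20:43946748-43946897, plus strand), Lama2 (chr1:19491996-19492145, plus strand), Nid1 (chr17:93069136-93069285, plus strand) and Agrn (chr5:172052826-172052975, minus strand). Capitals mark GGGCGG, the GC box letters, or its reverse complement CCGCCC.
Col4a1 and Col4a2: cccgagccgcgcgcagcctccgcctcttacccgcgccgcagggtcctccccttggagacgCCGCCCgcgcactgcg
Lamc1: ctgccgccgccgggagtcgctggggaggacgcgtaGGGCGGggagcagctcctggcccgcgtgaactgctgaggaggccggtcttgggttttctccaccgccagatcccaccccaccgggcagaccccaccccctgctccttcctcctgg
Lamb1: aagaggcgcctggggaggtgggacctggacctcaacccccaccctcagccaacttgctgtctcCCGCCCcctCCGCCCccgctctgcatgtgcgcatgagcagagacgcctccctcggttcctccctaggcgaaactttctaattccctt
Lama4: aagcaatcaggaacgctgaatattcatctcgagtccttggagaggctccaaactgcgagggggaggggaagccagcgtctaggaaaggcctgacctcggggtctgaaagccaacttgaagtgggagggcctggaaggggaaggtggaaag
Lama2: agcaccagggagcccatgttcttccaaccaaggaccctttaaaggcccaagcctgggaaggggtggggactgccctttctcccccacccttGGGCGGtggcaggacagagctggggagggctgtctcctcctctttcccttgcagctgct
Nid1: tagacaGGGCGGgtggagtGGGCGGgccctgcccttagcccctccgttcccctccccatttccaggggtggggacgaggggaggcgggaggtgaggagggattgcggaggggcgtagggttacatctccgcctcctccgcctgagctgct
Agrn: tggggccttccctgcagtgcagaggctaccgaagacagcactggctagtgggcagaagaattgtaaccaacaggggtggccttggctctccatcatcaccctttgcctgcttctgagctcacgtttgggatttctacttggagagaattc
The stretches of Nid1 and Lamb1 hold 2 matches each, those of Lamc1 and Lama2 and the one between the collagen genes hold 1 each, and 0 were found in those of Lama4 and Agrn. Over 250 bases before the start and on both strands, GGGCGG was found in 7 of the 12 genes lower in adult sham rats that had a promoter entry (58.3%), in 4 of 11 tested genes that were not called (36.4%) and in 32.4% of all 27457 promoters. CCAAT was found in 5 of 12 (41.7%), 2 of 11 (18.2%) and 34.3%, and TATAAA in 1 of 12 (8.33%), 1 of 11 (9.09%) and 13.1%. These counts describe letters in a window, and 42 of the 55 genes had an entry. The windows of Col4a1 and Col4a2 share the bases between their starts, so the GGGCGG match there counts for both genes.

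Type VI collagen forms beaded filaments beside basement membranes, and each molecule needs the products of Col6a1, Col6a2 and another chain such as that of Col6a3. All 3 tested chains were lower in adult sham rats. Col6a1 (1371349_at) lay at 5.88, 6.39 and 6.70 log2 in neonates and at 5.15, 5.28 and 5.89 log2 in adults, touching at the ends, with a difference of -0.99 ± 0.14 log2 (limma adjusted p = 2.1e-05). Col6a3 lay at 5.31, 6.62 and 7.25 log2 and at 3.64, 4.93 and 5.46 log2, and the difference of -1.66 ± 0.35 log2 (limma adjusted p = 0.0016) was among the largest of the set. Of the adult sham arrays 1 was below the filter level, so the size rests partly on dim values. Col6a2 was above that level on 15 of 24 arrays and lay at 3.46, 5.11 and 5.57 log2 and at 3.21, 3.87 and 4.67 log2, with a difference of -0.98 ± 0.31 log2 (limma adjusted p = 0.0311). That call was lost without adult sham 1, 3 or 4 or neonate sham 1, 4 or 6 (limma adjusted p up to 0.0833), with no filter and in a fit of the compared arrays only. Col6a1 and Col6a2 are neighbours in the genome, as are Col3a1 and Col5a2 in the fibrillar class.

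The fibrillar collagens, which give connective tissue its strength, were split: 4 of 8 tested chains were lower in adult sham rats. Col2a1, the collagen of cartilage and of early axial tissues, lay at 5.17, 6.67 and 7.28 log2 in neonates and at 3.89, 4.72 and 5.42 log2 in adults. It had the largest difference of the 35 genes, -1.72 ± 0.32 log2 (limma adjusted p = 3.9e-04), although neonate sham 3 overlapped the adults. Of 15 chondrocyte, bone and skeletal muscle markers on the array 4 were tested, and 2 of these were called higher and 0 lower in adult sham rats. The cartilage marker Comp was above the level on 0 arrays. Acan, which is also in the neural matrix list, had means of 4.73 log2 in neonate sham and 4.97 log2 in adult sham rats. Col3a1, the fibril former of soft and vascular tissue, lay at 7.95, 9.64 and 10.20 log2 and at 7.38, 8.54 and 9.27 log2, with a difference of -1.03 ± 0.31 log2 (limma adjusted p = 0.0252). It lost its call without adult sham 3 or 4 or neonate sham 1, 5 or 6 (limma adjusted p up to 0.0771), with no filter and in a fit of the compared arrays only. Col1a1, the alpha 1 chain of type I collagen, lay at 7.68, 8.99 and 9.15 log2 and at 6.96, 7.82 and 9.08 log2. Its ranges overlapped almost fully, and the difference of -0.80 ± 0.27 log2 had the largest p of the called ones (limma adjusted p = 0.0473, and 0.058 in the fit blocked by replicate number). It passed in only 6 of the 24 fits that left out 1 array (limma adjusted p up to 0.135). Its second probe set gave -0.97 log2 (limma adjusted p = 0.0056).

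The partner chain Col1a2 lay at 7.58, 9.88 and 10.03 log2 in neonate sham rats and at 7.88, 8.90 and 9.81 log2 in adult sham rats. The lowest neonate value was neonate sham 3, and the difference of -0.63 log2 was not called (limma adjusted p = 0.276). Without that array it was -0.99 log2 (limma adjusted p = 0.0295), and the second probe set of Col1a2 gave -1.07 log2 (limma adjusted p = 0.0228), so the 2 probe sets of this gene disagreed on the call. Col5a3, a chain of the type V collagen that starts and limits fibrils, was lower by a called -0.46 log2 (limma adjusted p = 0.0123). Its relatives Col5a1 and Col5a2 had uncalled differences of -0.40 log2 and -0.36 log2 (limma adjusted p = 0.131 each). Col11a2, a chain of type XI collagen, differed by 0.24 log2 with an interval of -0.12 to 0.59 log2.

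Outside these classes the glycoprotein Fn1 (fibronectin, an adhesive protein of plasma and tissue) lay at 8.16, 8.88 and 9.43 log2 in neonate sham rats and at 7.29, 8.17 and 8.36 log2 in adult sham rats, 1.76-fold lower in adults (limma adjusted p = 0.0039). The ranges met at neonate sham 3. Sparc, a secreted protein that binds collagen, lay at 12.86, 13.13 and 13.39 log2 and at 12.42, 12.70 and 12.85 log2. No adult sham array reached a neonate one, although the nearest arrays almost touched, and the difference was -0.49 ± 0.15 log2 (limma adjusted p = 0.0218). The call was lost without adult sham 3 or 6 or neonate sham 4 (limma adjusted p up to 0.0516). Its relative Sparcl1, an abundant product of astrocytes, lay at 13.48, 13.60 and 13.67 log2 and at 13.28, 13.46 and 13.67 log2, with an interval of the difference from -0.28 to 0.05 log2.

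The small leucine-rich proteoglycans, which coat collagen fibrils, showed no called age difference in any of their 3 tested genes. Dcn (decorin) lay at 7.24, 9.08 and 9.43 log2 in neonate sham rats and at 8.07, 8.99 and 9.70 log2 in adult sham rats, and the interval of the difference was -0.50 to 0.70 log2. Lum (lumican) lay at 5.01, 6.71 and 7.38 log2 and at 4.56, 6.26 and 6.98 log2, with an interval of -1.16 to 0.34 log2. Bgn (biglycan) lay at 7.49, 7.75 and 7.86 log2 and at 7.56, 7.89 and 8.32 log2, with an interval of -0.03 to 0.51 log2. These ranges overlapped for all 3, although the intervals of Dcn and Lum are wide enough to hold differences of the size called elsewhere. For Dcn and Lum the lowest neonate value was that of neonate sham 3, which deviated from the other arrays of its group by -1.91 and -1.86 log2. The lowest adult value was that of adult sham 4, with deviations of -1.03 and -1.90 log2. Eln (elastin, the rubber-like core of elastic fibres) lay at 6.02, 6.14 and 6.33 log2 and at 5.22, 5.81 and 6.02 log2. That difference of -0.40 log2 was not called (limma adjusted p = 0.122), nor was that of Fbn1, the fibrillin of the same fibres (-0.34 log2, limma adjusted p = 0.113). Among the fibril-associated collagens, Col9a2, Col12a1 and Col14a1 differed by -0.40, -0.19 and -0.87 log2, also without a call.

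**Figure D2:**
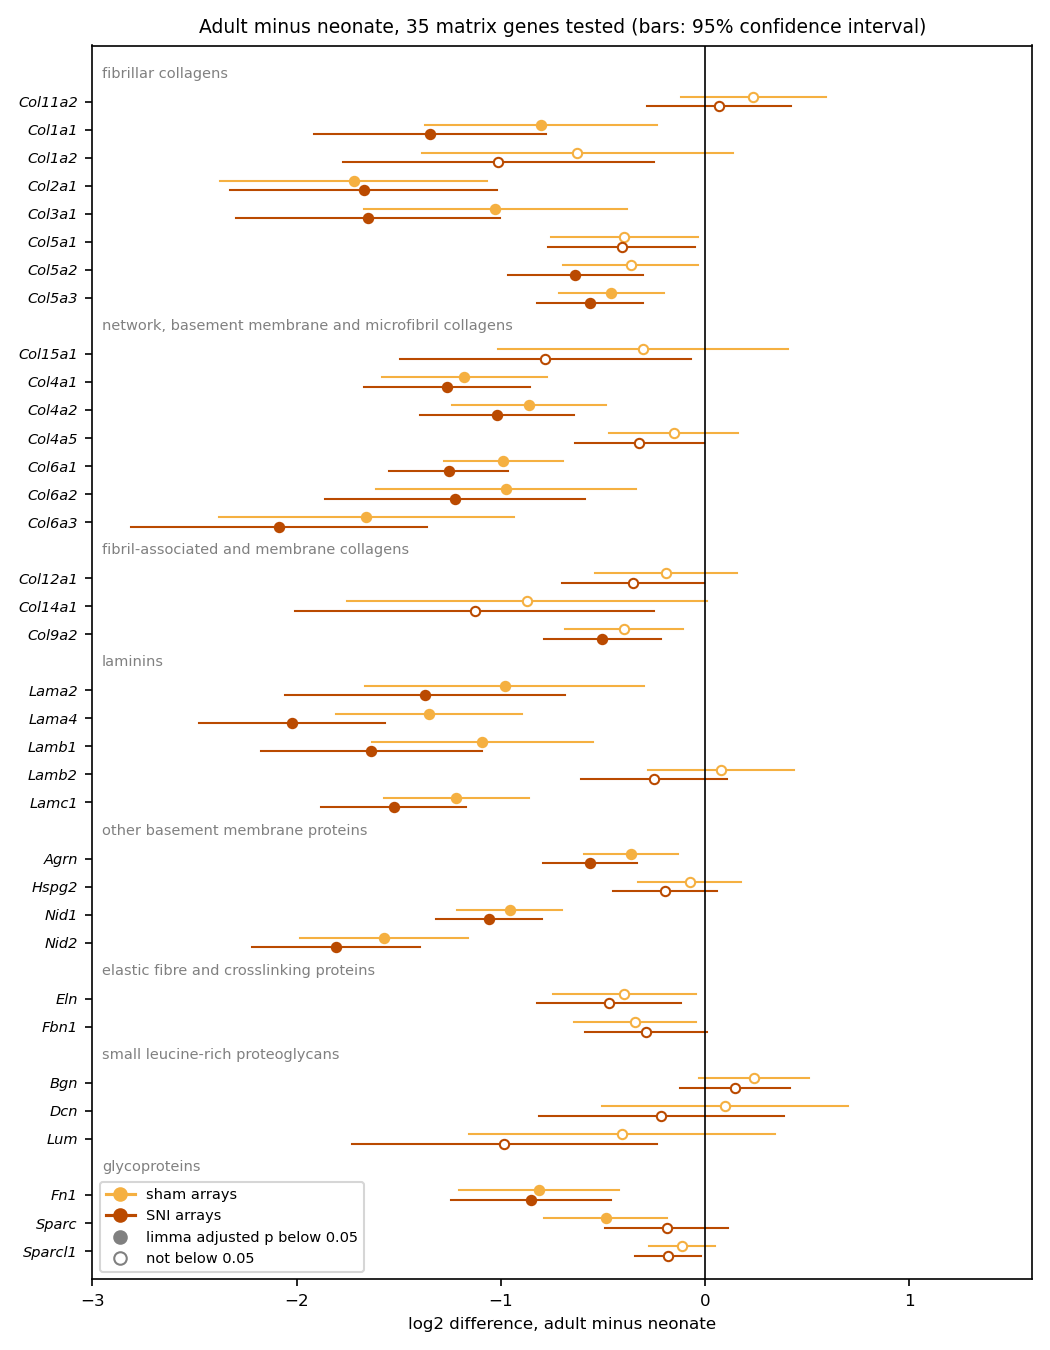
Adult minus neonate difference in log2 expression (horizontal axis) for the 35 tested genes by class, in sham arrays and in SNI arrays, with 95% confidence intervals; filled points have a limma adjusted p below 0.05. Of the sham points 18 are filled and of the SNI points 19, all of them left of 0.

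The remaining 20 genes were not tested, and 18 of these were above the level on 0 arrays. They included Postn, Tnc, Lox, Fmod, Loxl1 and Fbn2, and Lama1, Lama3 and Lama5 among the laminins. Tnc (tenascin-C, a glycoprotein of developing and wounded tissue) lay at 2.70, 2.80 and 3.60 log2 in neonate sham rats and at 2.59, 2.79 and 2.79 log2 in adult sham rats. Postn (periostin, a protein of collagen-rich tissue) had medians of 2.28 and 2.23 log2, and Lox, which crosslinks collagen and elastin, medians of 2.09 log2 in both. Such values do not show whether these genes differ, because the probe sets were at or near the low end of the scale. Col18a1 and Col19a1 rose above the level on 3 and 5 arrays.

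The age difference was next read in the SNI rats, whose group means come from other arrays than the sham means. The tests are not independent, because the variance of each gene came from a fit of all groups together. Leaving out single SNI arrays changed the sham calls of Lama2, Col1a1, Eln and Col9a2, as given below. The comparison in SNI rats was added after the data had been seen, and same-numbered sham and SNI arrays of an age may share a source. In SNI rats 19 of 35 genes were lower in adults and 0 higher, where 11.9% of all tested genes were lower and 9.66% higher, and 16 of the 30 genes above the level on all arrays were among them. The 17 genes called in both comparisons were 17 of the 18 from sham rats and 17 of the 19 from SNI rats. Sparc was called in sham rats alone, and Col5a2 and Col9a2 in SNI rats alone, which does not show that their age difference depended on injury. The second probe set of Sparc was called in both, at -0.57 log2 in sham rats and -0.50 log2 in SNI rats (limma adjusted p = 0.0050 and 0.0116), and without neonate SNI 5 the first was called in SNI rats as well (limma adjusted p = 0.00891). By sign 31 of the 35 were lower in both, and Bgn and Col11a2 were higher in both without being called. Among all tested genes 55.9% were lower by sign in sham rats and 58.3% in SNI rats. The overlap of the 2 comparisons was not counted for all tested genes, so the overlap counts do not set the matrix genes apart. In 14 genes the adult and neonate SNI arrays did not overlap, all of them lower in adults, against 4.32% of all tested genes lower and 4.78% higher.

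Lama4 in the SNI rats lay at 5.68, 6.18 and 6.87 log2 in neonates and at 3.62, 4.13 and 4.56 log2 in adults, 4.06-fold lower (limma adjusted p = 3.6e-07). The groups were more than 1 log2 unit apart at their nearest. Col6a3 lay at 5.78, 6.46 and 7.28 log2 and at 3.38, 4.53 and 4.96 log2, 4.25-fold lower (limma adjusted p = 1.1e-04). For both Lama4 and Col6a3, 5 of the 6 adult SNI arrays were above the filter level, so these sizes rest partly on dim values. Col3a1 lay at 9.48, 9.71 and 10.20 log2 and at 7.67, 7.98 and 8.86 log2, without overlap and 3.14-fold lower (limma adjusted p = 4.2e-04). Col1a1, whose sham arrays overlapped, was separate here and lay at 8.37, 8.86 and 9.22 log2 and at 7.01, 7.66 and 7.88 log2, with a difference of -1.35 log2 (limma adjusted p = 8.8e-04). Lamb1 and Lama2 also separated, with differences of -1.63 and -1.37 log2. Dcn and Lamb2 stayed uncalled, with intervals of -0.82 to 0.39 and -0.61 to 0.11 log2.

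Markers of cells that make matrix did not move as one list. Among all tested genes 8.59% were lower and 7.86% higher in adult sham rats, and 11.9% lower and 9.66% higher in adult SNI rats. The lists are short, so a count of 1 does not set a list apart from these shares. Of 12 tested meningeal and fibroblast markers 3 were higher in adult sham rats, the retinal dehydrogenase Aldh1a1 by 2.59, the prostaglandin D synthase Ptgds by 2.23 and the proteoglycan Ogn by 1.02 log2, and 1, Mfap4, was lower by -1.05 log2. The mean of the list ran from 6.83 to 8.12 log2 on the neonate sham arrays and from 7.78 to 8.15 log2 on the adult sham arrays. Of 14 endothelial markers 2 were higher (Slco1a4, a transporter, by 1.76 log2, and Flt1) and 3 lower (Kdr, a receptor for vascular growth factor, by -0.60 log2, and Tie1 and Tfrc), with list means of 7.11 to 7.36 and 7.15 to 7.29 log2. Of 8 pericyte and smooth muscle markers 1 was higher and 2 were lower. Of 5 Schwann cell markers 1 was lower, Egr2, a transcription factor of myelinating Schwann cells, by -1.41 log2. The Schwann cell list ran from 7.86 to 9.63 log2 with a median of 9.10 in neonates and from 8.03 to 9.22 log2 with a median of 8.53 in adults, and 2 of its genes, Mal and Sox10, are also made by oligodendrocytes. In SNI rats all 5 Schwann cell markers were below 0 for adult minus neonate, with a median of -0.71 log2 and 2 called, Egr2 by -1.84 and the tight junction gene Cldn19 by -1.01 log2. That list ran from 8.78 to 9.66 log2 on the neonate SNI arrays and from 8.23 to 8.68 log2 on the adult SNI arrays, without overlap. Of the fibroblast markers 2 were higher in adult SNI rats (Aldh1a1 by 2.50 and Ogn by 0.92 log2) and 2 lower (Mfap4 by -1.02 and Slc6a13 by -0.64 log2), while 3 endothelial markers were higher and 2 lower, and 1 pericyte marker was higher and 2 lower. Of 15 microglia and macrophage markers 14 were higher in adult SNI than in neonate SNI rats, with a median of 1.54 log2. The part of cell makeup in the age differences was not tested.

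**Figure D3:**
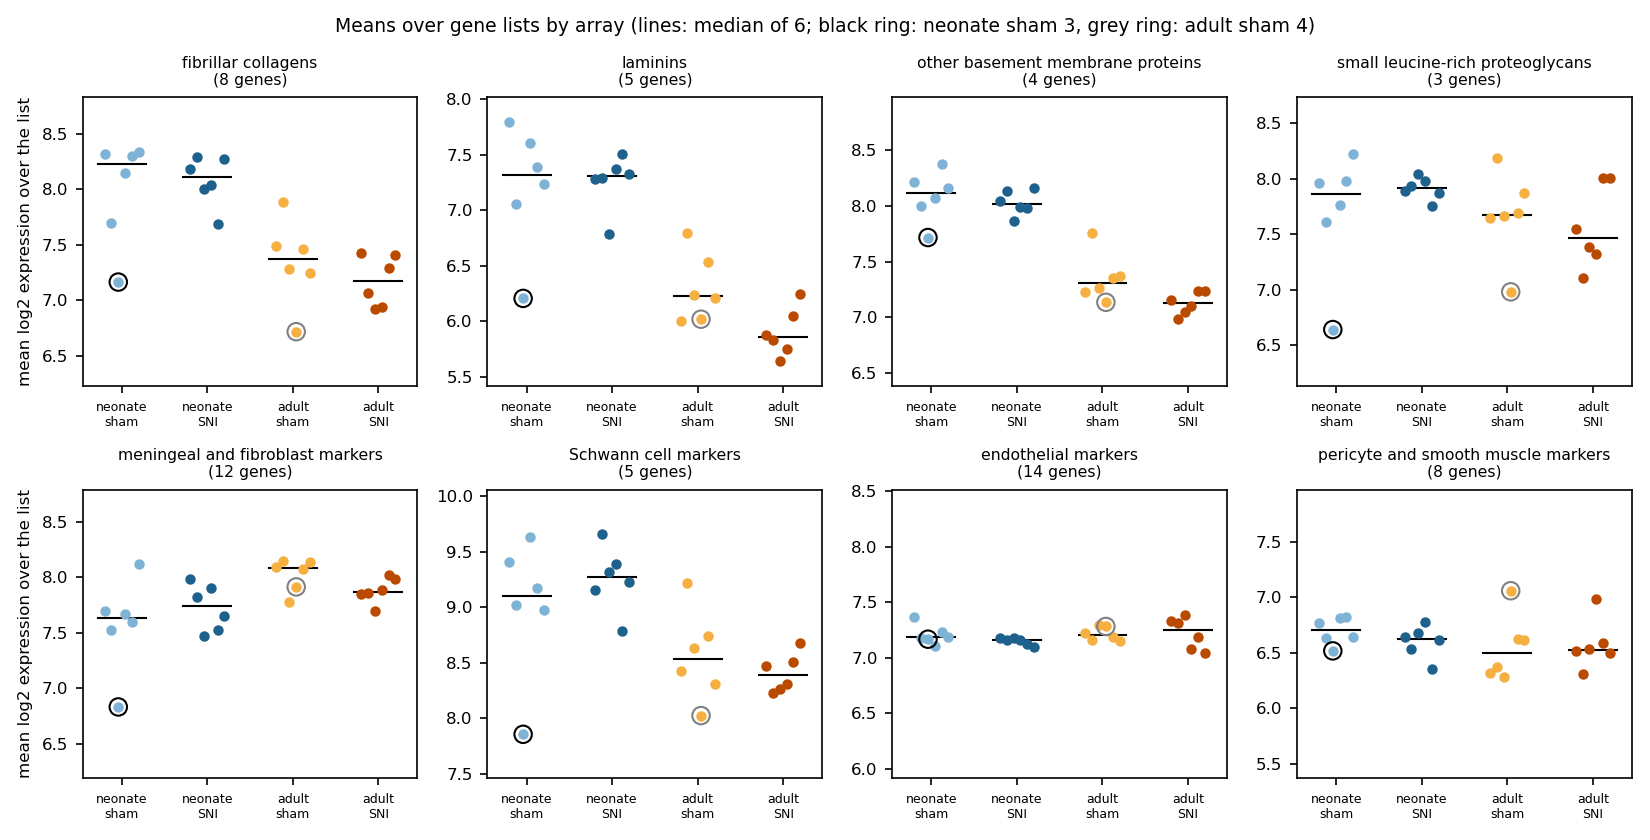
Mean log2 expression over the tested genes of 4 matrix classes (upper row) and 4 cell type marker lists (lower row) on each array; lines are medians of 6, and rings mark neonate sham 3 and adult sham 4. Neonate sham 3 is the lowest neonate array in the laminin, fibrillar collagen, fibroblast and Schwann cell panels and lies among the others in the endothelial panel.

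Genes that process or bind the matrix were read by list, beside the 8.59% lower and 7.86% higher among all tested genes. Of 14 tested genes for collagen folding and crosslinking 1 was higher in adult sham rats (P4ha1, a subunit of prolyl hydroxylase, by 0.47 log2) and 1 lower (Plod3, a lysyl hydroxylase, by -0.23 log2). Of 15 proteases and inhibitors 2 were higher, the membrane protease Mmp24 by 0.72 and the cathepsin Ctss by 0.63 log2, and 1 lower, Mmp17 by -0.70 log2. Of 12 matrix receptors Itgb5 was higher by 0.69 log2, and Itgb1, the integrin beta chain shared by most collagen and laminin receptors, and Dag1, the dystroglycan that binds laminin, were lower by -0.41 and -0.39 log2. In the neural matrix of hyaluronan-binding proteins 3 of 8 were lower, Tnr by -1.02, Bcan by -0.65 and Reln by -0.37 log2, and the link protein Hapln2 was higher by 1.23 log2. Of 12 genes of transforming growth factor beta signalling only Smad7, an inhibitor of the pathway, passed, by 0.39 log2. All of these rest on a limma adjusted p below 0.05.

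Whether nerve injury changed the matrix genes was asked in each age. In adults 0 of the 35 passed the test in either direction, where 1.98% of all tested genes were higher and 0.0285% lower. By the chosen probe sets 3 had an unadjusted limma p below 0.05: Lama4 (0.0044), Agrn (0.019) and Col4a2 (0.020). The second probe set of Col4a1 is given below. In neonates 0 passed as well, against 0.357% higher and 0% lower among all tested genes, and 0 had an unadjusted p below 0.05. Sham and SNI arrays overlapped in all 35 genes at both ages. Among all tested genes, SNI arrays lay wholly above sham arrays in 1.8% and wholly below in 0.0856% in adults, and in 0.485% and 0.0285% in neonates. Read by same-numbered pairs, a count chosen after the data had been seen, Lama4, Agrn, Col4a2 and Lamc1 were lower in adult SNI rats in 6 of 6 pairs, 4 of 35 genes where 4.07% of all tested genes were lower and 4.67% higher in all pairs. In neonates 0 of the 35 lay on one side in all 6 pairs, against 1.54% lower and 2.16% higher. The median difference, SNI minus sham, was -0.18 log2 in adults, with 29 of the 35 below 0 (82.9%, against 60.7% of all tested genes, whose median was -0.03 log2), and 0.05 log2 in neonates, with 15 below 0. Leaving out 1 adult array moved the adult median to between -0.25 log2 (without adult sham 4) and -0.10 log2 (without adult sham 2), and it stayed below 0 in each case. The neonate median was -0.09 log2 without neonate sham 3. Over all 35 genes the intervals stayed between -1.33 and 0.70 log2 in adults and between -1.07 and 1.01 log2 in neonates.

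Lama4 had the largest injury difference in adults. Its adult SNI arrays lay at 3.62, 4.13 and 4.56 log2, beside 4.45, 4.86 and 5.20 log2 in adult sham rats, so that the groups overlapped slightly. Of the 6 adult SNI arrays 5 were above the filter level, so the size rests partly on dim values. The difference was -0.69 ± 0.22 log2 (limma adjusted p = 0.152), or 0.0178 in the fit blocked by replicate number, where it was the only one of the 35 genes called. In neonates Lama4 differed by -0.02 log2, with medians of 6.13 and 6.18 log2. The injury effects of the 2 ages differed by -0.67 log2 (interval -1.32 to -0.03 log2), which had an unadjusted p of 0.042 and was not called after adjustment. Of the 35 genes 0 were called for this difference between ages, against 0.257% of all tested genes with a larger effect in adults and 0% with a smaller one. By the chosen probe sets Lama4 was the only one with an unadjusted p below 0.05. The second probe set of Col4a1 differed by -0.57 log2 (interval -1.12 to -0.01 log2, limma unadjusted p = 0.046) and was not called. The adult injury and adult age comparisons share the adult sham arrays and those in SNI rats the adult SNI arrays, so that values of Lama4 in them are not independent.

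Col4a2 lay at 8.95, 9.10 and 9.73 log2 in adult SNI rats, with a difference of -0.46 log2 (interval -0.83 to -0.08 log2, limma adjusted p = 0.408). It overlapped the adult sham arrays. Col4a1 differed by -0.11 log2 with its brighter probe set and by -0.67 log2 with the other (limma unadjusted p = 0.0018, adjusted p = 0.0774), neither of them called. Fibrillar collagens had uncalled adult injury differences of -0.41 (Col1a1), -0.13 (Col1a2) and -0.32 log2 (Col3a1), with intervals that include 0. Fn1 and Dcn differed by 0.01 and 0.10 log2. On the same arrays all 15 tested markers of microglia and macrophages were called higher in adult SNI rats, with a median of 1.97 log2. In neonates all 15 were above 0, with a median of 1.04 log2, and 11 of them were called.

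**Figure D4:**
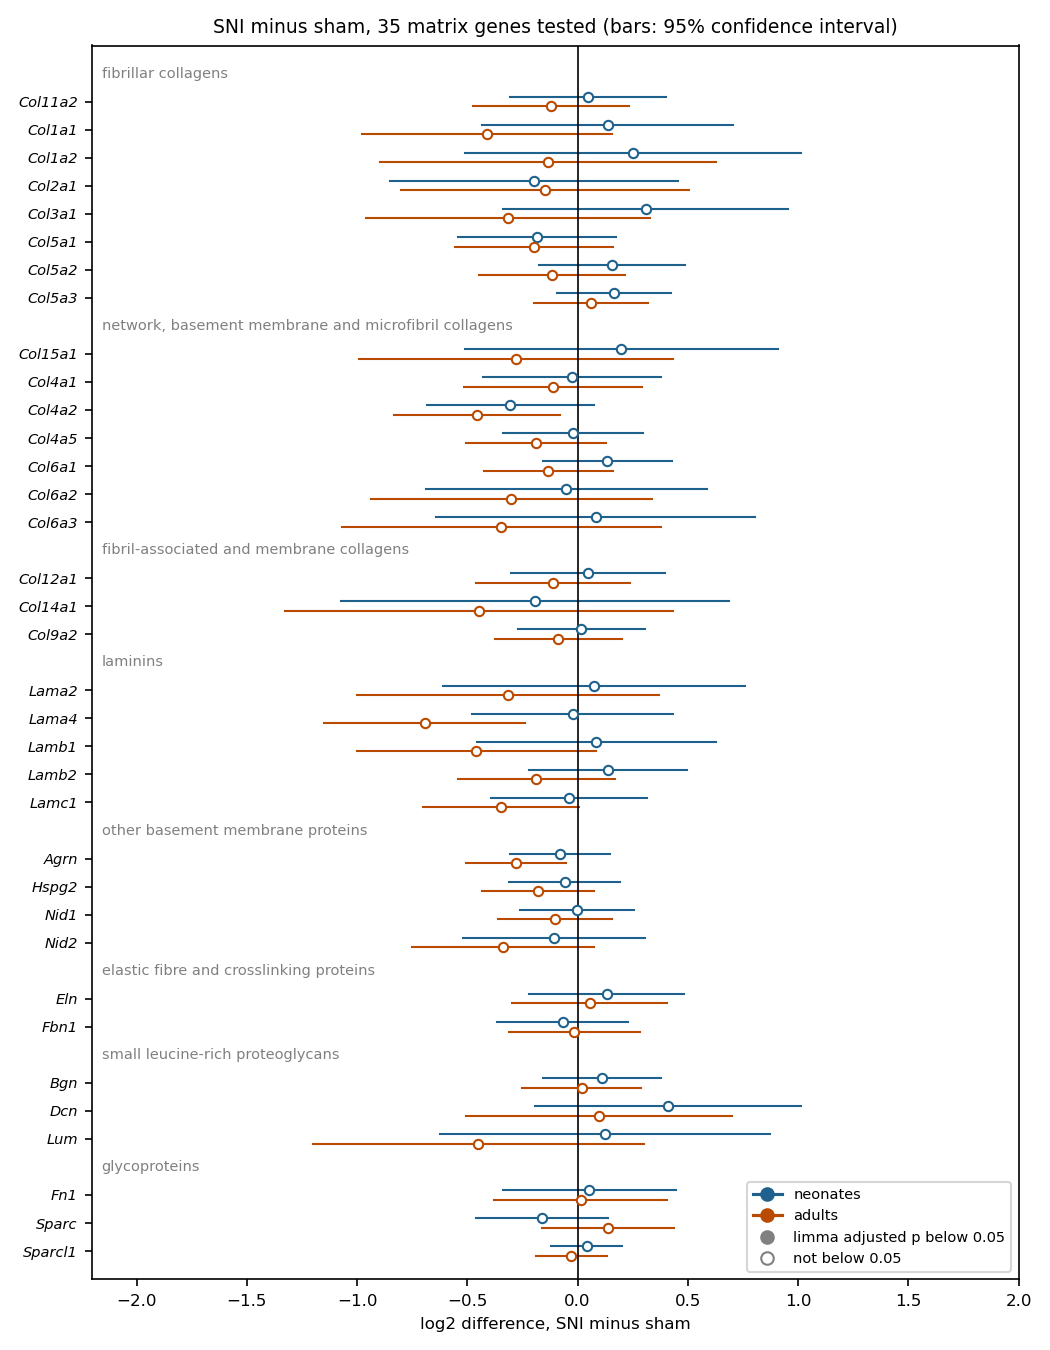
SNI minus sham difference in log2 expression (horizontal axis) for the 35 tested genes by class, in neonates and adults, with 95% confidence intervals; open points have a limma adjusted p of 0.05 or more. No point is filled, and 29 adult points lie left of 0.

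Injury changed a few genes that act on the matrix. Timp1, an inhibitor of matrix metalloproteases, lay at 5.61, 6.02 and 6.34 log2 in adult sham rats and at 6.62, 7.34 and 7.72 log2 in adult SNI rats. It rose without overlap by 1.24 ± 0.17 log2 (limma adjusted p = 3.4e-05), and in neonates by 0.78 log2 (limma adjusted p = 0.0498). Ctss, a cathepsin of microglia that also counts among their markers, rose by 0.91 log2 in adults (limma adjusted p = 4.0e-05) and by 0.58 log2 in neonates (limma adjusted p = 0.0481). Of the 12 genes of transforming growth factor beta signalling only the receptor Tgfbr1 rose in adults, by 0.87 log2 (limma adjusted p = 0.0014). None of the 14 genes for collagen folding and crosslinking, the 12 receptors or the 8 genes of the neural matrix passed in either age. Among all tested genes 1.98% were higher and 0.0285% lower in adults, and 0.357% higher and 0% lower in neonates. In lists this short, a count of 0 is near those shares and does not set the lists apart.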

How the data were processed

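The authors deposited log2 expression values per probe set of Affymetrix Rat Expression 230A arrays, made with GCRMA (background correction by probe sequence, normalization across arrays, summary of probes), as the submitters' processing notes name it, with a version not given in the sources used here. Dim probe sets sit at a common low value, so differences that start there are understated. The log2 values deposited were used unchanged.

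Of 15923 probe sets, 57 controls were left out. Of the other 15866, 12783 had 1 gene symbol in the platform annotation, 312 had several and 2771 had none; probe sets with several or none were tested but not named. A linear model with a mean per group was fitted in limma 3.58.1 (R 4.3.3, with version 1.17.8 of data.table) to the 9638 probe sets that exceeded 3.84 log2, the 40th percentile over all arrays, on 6 or more arrays, with 20 residual degrees of freedom and a prior of 3.81. Two-sided p-values were adjusted by Benjamini-Hochberg (threshold 0.05). The fit was tested on simulated data. Contrasts were adult injury, neonate injury, their difference and age in sham rats; age in SNI rats was added after seeing the data.

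All members may be named. Values by array were given by rule for the 15 lowest called changes of age in sham rats and for a set of index genes. Up to 4 genes per pathway list were named by smallest p. The members, the lists and the rule were chosen with earlier results of these data known. Deviations of same-numbered sham and SNI arrays from their group means had correlations of 0.10 to 0.56 for the adults and 0.24 to 0.61 for the neonates, over 0.1 in all 6 pairs each. These were not compared with correlations of arrays of different numbers, so they do not show that the numbers mark pairs, and the meaning of the numbers is not labelled. The main fit had no block for replicate number, and calls that changed in a fit with that block are given. Promoter letters came from RefSeq (GRCr8), matched by Entrez gene identifier, with the first entry kept for each gene. All 55 members matched its gene list. The number of arrays limits the precision. Figures used matplotlib 3.10.9, pandas 2.3.3 and Python 3.11.15.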

Additional observations from a re-analysis of the deposited data

Results flagged for a closer look

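In 15 of 140 groups of 6 arrays, 1 array lay farther from the nearest other than Dixon's 95% limit (0.625 of the range of the group) allows; chance gives about 1 in 20 groups. Of these, 3 were in neonate sham 3: Dcn at 7.24 log2 against 9.01 to 9.43 on the other 5 arrays, Col15a1 at 6.99 against 8.00 to 8.51, and Col4a1 at 7.56 against 8.24 to 8.57. In adult sham 3, Fn1 was at 7.29 against 7.97 to 8.36 log2 and Lamb2 at 6.77 against 7.02 to 7.15. In adult sham 4, Lum was at 4.56 against 6.13 to 6.98 log2. In adult SNI 4, Eln was at 4.92 against 5.82 to 6.02 log2, Col12a1 at 4.10 against 4.47 to 4.65 and Col5a1 at 6.43 against 6.71 to 6.78. In neonate SNI 5, Col4a2 was at 9.28 against 10.18 to 10.62 log2 and Sparc at 12.10 against 13.06 to 13.24. In neonate SNI 3, Nid2 was at 7.28 against 7.86 to 8.12 log2. The high values were Col11a2 in adult SNI 1 at 7.07 against 6.14 to 6.43 log2, Dcn in neonate SNI 2 at 9.68 against 9.09 to 9.23, and Hspg2 in neonate sham 5 at 4.78 against 4.07 to 4.25.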

How the results depend on the processing

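Over 34 alternatives no called difference changed sign. With the replicate number as a block, 1 matrix gene (Lama4) was called in adult injury in place of 0, Col1a1 was not called in age in sham rats, Col1a2 and Eln were called in age in SNI rats, and no other call changed. Without neonate sham 3 the median difference of age in sham rats was -0.72 log2. Leaving out 1 array at a time gave 0 calls in both injury comparisons and in the difference between ages, 12 (without adult sham 3) to 20 (without neonate sham 3) in age in sham rats and 19 to 22 in age in SNI rats. The medians ran from -0.25 to -0.10 log2 in adult injury, -0.09 to 0.10 in neonate injury, -0.27 to -0.10 in the difference, -0.72 to -0.44 in age in sham rats and -0.93 to -0.76 in age in SNI rats. The call of Col1a1 in sham rats held only without adult sham 2, adult sham 5, adult SNI 3, adult SNI 4, neonate sham 3 or neonate SNI 5 (adjusted p up to 0.135 otherwise). That of Lama2 was lost without adult sham 1, 3, 4, 5 or 6, adult SNI 2, neonate sham 1, 4, 5 or 6, or neonate SNI 1, 2, 4 or 6 (up to 0.109). Col6a2 was lost without adult sham 1, 3 or 4 or neonate sham 1, 4 or 6 (up to 0.0833), Col3a1 without adult sham 3 or 4 or neonate sham 1, 5 or 6 (up to 0.0771), Agrn without adult sham 3 or 5 or neonate sham 5 or 6 (up to 0.0663), and Sparc without adult sham 3 or 6 or neonate sham 4 (up to 0.0516). The other 12 sham calls and all 19 calls in SNI rats held in all 34, except where the stricter filter removed the gene from the test. Calls were also gained in sham rats: Col1a2 and Col5a2 without neonate sham 3 (adjusted p = 0.0295 and 0.0235), Col5a1 without adult sham 1 (0.0349), Eln without adult SNI 4 (0.038), and Col9a2 without adult sham 1 or 5, neonate sham 5 or neonate SNI 4, 5 or 6 (0.0242 to 0.0497). In SNI rats, leaving out 1 array gained Sparc and Col5a1 (without neonate SNI 5, adjusted p = 0.00891 and 0.017), Lum (without adult sham 4, adult SNI 5 or 6 or neonate sham 3), Col14a1 (adult sham 2 or 4 or neonate sham 5), Col1a2 (adult sham 2 or 3, adult SNI 5 or 6, neonate sham 3 or neonate SNI 3) and Eln (adult sham 4, adult SNI 1, 2, 3 or 6 or neonate SNI 4 or 5). Fits with no filter and with only the arrays compared lost Col1a1, Col3a1, Col6a2 and Lama2, and quantile normalization lost Col1a1. Leaving out 1 array moved the sham age difference of Col3a1 between -1.33 and -0.82 log2, and that of Lama2 between -1.32 and -0.84 log2. For Col6a2 it ran from -1.26 to -0.84 log2, and for Col1a1 from -1.03 to -0.61 log2.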
